A study of Mus musculus with 12 samples.

Results

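The genes described here carry or control the movement of water and urea in the mouse kidney. They are the vasopressin V2 receptor gene Avpr2, the aquaporin genes Aqp1, Aqp2, Aqp3, Aqp4, Aqp6, Aqp7 and Aqp11, and the urea transporter genes Slc14a1 and Slc14a2. These 10 genes were taken by symbol from the 40213 genes in the count tables. All 10 passed the low-count filter, which left 17841 genes for testing. Bulk RNA-seq had been made from total RNA of C57BL/6 mouse kidney in 3 groups of 4 libraries, all labelled batch 1. CKD with colchicine received an adenine diet and intraperitoneal colchicine at 0.3 mg/kg per day. CKD received a 2% adenine diet and intraperitoneal saline, and control received a normal diet and intraperitoneal saline. Adenine in the diet injures the tubules through crystals and is used to model chronic kidney disease (CKD). Colchicine is a plant compound that binds tubulin and is used against inflammation. The labels give 2, 3, 4 and 5% adenine for replicates 1, 2, 3 and 4 of CKD with colchicine, so only replicate 1 matches the CKD diet as labelled. The sources used here give no age, sex or time on the diet. No animals are named, although the titles call the CKD with colchicine libraries biological replicates and the other libraries replicates. The p-values therefore measure only how far these samples spread, which may in part be technical.

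Vasopressin acts on its V2 receptor in the basolateral membrane of collecting duct principal cells. The receptor raises cyclic AMP, and protein kinase A then drives aquaporin 2 (Aqp2) vesicles to the apical membrane and raises Aqp2 transcription. Water leaves the principal cell through aquaporins 3 and 4 (Aqp3, Aqp4). Urea leaves the inner medullary collecting duct through the transporters encoded by Slc14a2, and Slc14a1 encodes the urea transporter of the descending vasa recta and of erythrocytes. Upstream, aquaporin 1 (Aqp1) is the water channel of the proximal tubule and thin descending limb. Aquaporin 7 (Aqp7) is a water and glycerol channel of the straight proximal tubule, and aquaporin 11 (Aqp11) lies in the endoplasmic reticulum of proximal tubule cells. Aquaporin 6 (Aqp6) lies in vesicles of intercalated cells. In bulk kidney, fewer cells of a type and less RNA per cell cannot be told apart.

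The stretches of 250 bases before the annotated starts of Aqp2 and Aqp3 are shown because these genes had the lowest log2 fold changes of the 10 in colchicine-treated against untreated CKD. They are RefSeq sequences on GRCm38.p6, printed 5′ to 3′ along the gene, at chr15:99578806-99579055 on the plus strand for Aqp2 and chr4:41098184-41098433 on the minus strand for Aqp3. Capitals mark matches, on either strand, to the half-site TGACG of the cyclic AMP response element, to the GATA site AGATA, and to the core TGGAAA of the element bound by the osmotic regulator NFAT5.
Aqp2: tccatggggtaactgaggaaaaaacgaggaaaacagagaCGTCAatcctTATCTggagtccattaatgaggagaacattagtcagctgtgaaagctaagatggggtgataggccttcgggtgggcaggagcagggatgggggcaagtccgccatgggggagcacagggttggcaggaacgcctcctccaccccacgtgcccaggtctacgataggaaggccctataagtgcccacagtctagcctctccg
Aqp3: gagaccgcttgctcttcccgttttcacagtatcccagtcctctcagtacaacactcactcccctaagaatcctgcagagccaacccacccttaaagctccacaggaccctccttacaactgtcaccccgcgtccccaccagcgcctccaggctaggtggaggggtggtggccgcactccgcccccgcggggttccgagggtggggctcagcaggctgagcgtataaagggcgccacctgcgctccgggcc
In the Aqp2 stretch the capitals are CGTCA and TATCT, the reverse complements of TGACG and AGATA. Their first bases lie at positions -211 and -201 relative to the start, and the 2 matches do not overlap each other. The Aqp3 stretch holds none of the 3 strings. Windows running from 250 bases before to 50 bases after the start were searched for 7 of the 10 genes, which have 8 such windows. TGACG was found in 1 of these windows, AGATA in 3 and TGGAAA in 1. Over all 32851 such windows the shares with a match were 20.8% for TGACG, 29.6% for AGATA and 21.4% for TGGAAA.

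Each library held between 23.9 and 38.3 M counts (M, 1000000) in CKD with colchicine, between 22.2 and 27.4 M in CKD and between 22.6 and 31.7 M in control. Mitochondrially encoded mRNAs took 14.3 to 21.3% of the counts in CKD with colchicine, 16.5 to 17.0% in CKD and 40.8 to 45.9% in control. Levels are therefore given as counts per 1000000 (CPM) after TMM scaling (trimmed mean of M-values), which takes most genes as unchanged; its factors were 1.21 to 1.32, 1.23 to 1.27 and 0.586 to 0.646 in the same order of groups. Scaling by library totals alone instead moved the median of all genes in CKD against control to 1.05, from 0.04, on the log2 scale. Replicate 1 of CKD with colchicine stood farther from the other libraries of its group than any other pair of replicates did. Its chi-square per gene against them was 57.2 to 75.5, against 6.76 to 44.7 for all other pairs within groups. The markers matched the labelled tissue and injury: the summed level of 20 proximal tubule genes was 40300 to 42800 CPM in control, and 12 of 12 injured tubule genes were higher in CKD than in control.

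What the adenine diet changed is asked by CKD against control. Of the 10 genes, 8 fell and none rose: the receptor gene and all 7 aquaporin genes were called lower. Neither urea transporter gene passed the test. The 8 genes were lower in every CKD library than in any control library. How many of all genes tested were apart in this way was not counted. Among the gene lists described below it was common. It held for 22 of 30 cyclic AMP signalling genes, 19 of 23 vesicle traffic genes and 6 of 12 other principal cell markers. Over all genes tested, edgeR's quasi-likelihood test called 67.4% in either direction, 34.1% higher and 33.4% lower, with an adjusted p below 0.05 as the threshold. The median log2 fold change of the 10 genes was -1.89, beside 0.04 over all genes tested. The decreases ranged from 3.38 times for Avpr2 to 9.36 times for Aqp11. All 8 calls held under each of the 20 other settings tried for this comparison, but with library totals only the log2 fold changes were smaller, from -0.75 for Avpr2, -0.76 for Aqp6, -0.80 for Aqp1 and -0.95 for Aqp7 to -1.50 for Aqp4, -1.60 for Aqp2, -1.81 for Aqp3 and -2.22 for Aqp11.

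**Figure D1:**
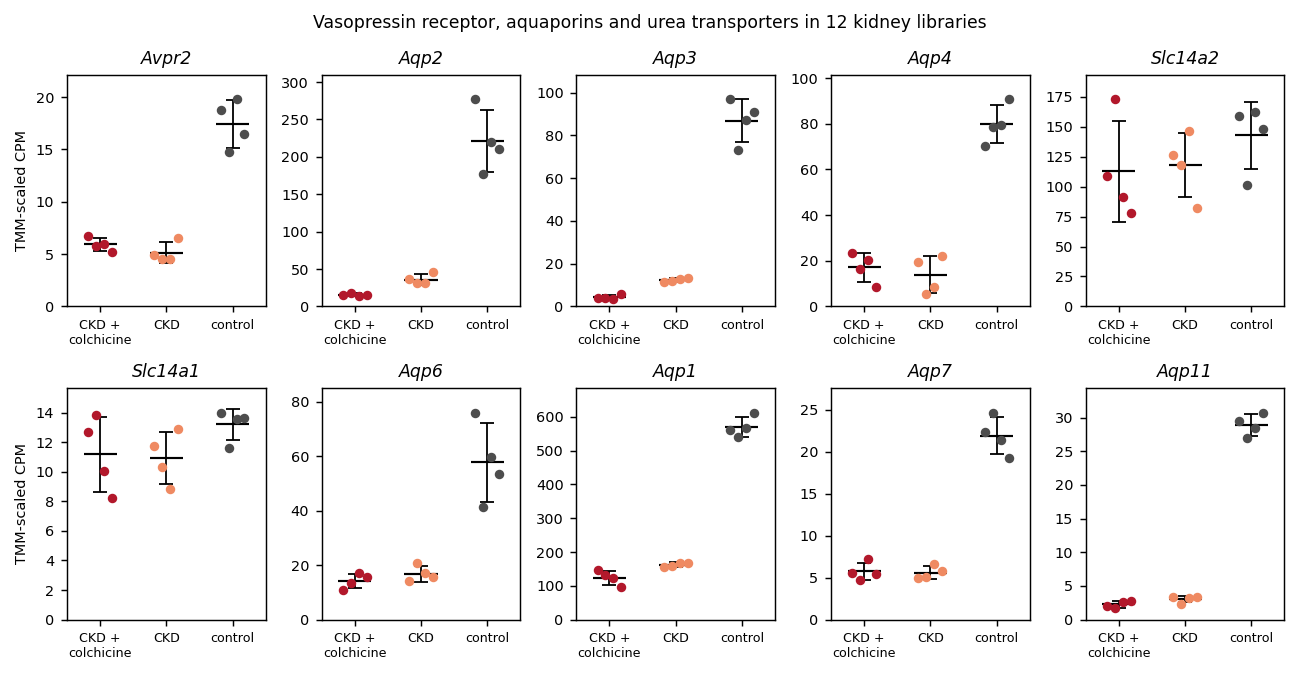
TMM-scaled CPM of the 10 genes in each library; points are libraries in the order of their replicate numbers, lines are group means and bars are SD (n = 4). The 8 genes that fell in CKD against control have every point of both adenine groups below every control point, and the points of Slc14a2 and Slc14a1 overlap between groups.

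Avpr2, the receptor, had 4.89, 4.56, 4.53 and 6.57 CPM in CKD replicates 1 to 4, against 18.8, 14.8, 19.8 and 16.5 CPM in control. The highest CKD library was below the lowest control library. The log2 fold change was -1.76 ± 0.14 (SE; edgeR adjusted p = 2.57e-08). The transcripts were few, with 644 counts over the 4 CKD libraries and 1185 over the 4 control libraries.

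Aqp2, the apical water channel, had 36.1, 31.5, 30.7 and 45.5 CPM in CKD, against 277, 178, 220 and 210 CPM in control. The groups were far apart, and the log2 fold change was -2.62 ± 0.15 (edgeR adjusted p = 8.61e-10), which is 6.15 times lower. Aqp3, a basolateral exit path, had 11.4, 11.9, 12.8 and 13.2 CPM in CKD, against 96.9, 73.0, 87.2 and 90.8 CPM in control. Its CKD libraries lay close together, and the log2 fold change of -2.82 ± 0.12 (edgeR adjusted p = 3.46e-11) made it 7.05 times lower. Aqp4, the other basolateral path, had 19.5, 5.63, 8.57 and 22.1 CPM in CKD, against 70.5, 78.5, 79.6 and 90.7 CPM in control. All CKD libraries were below control, with replicates 2 and 3 lower than replicates 1 and 4. The log2 fold change was -2.51 ± 0.43 (edgeR adjusted p = 0.000343).

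Neither urea transporter gene was called. Slc14a2, of the inner medullary collecting duct and thin descending limb, had 127, 118, 146 and 82.4 CPM in CKD, against 159, 102, 163 and 148 CPM in control. The groups overlapped, and the log2 fold change of -0.27 ± 0.25 did not pass (edgeR adjusted p = 0.361). Slc14a1, of the vasa recta and erythrocytes, had 11.8, 10.3, 8.84 and 12.9 CPM in CKD, against 13.99, 11.6, 13.6 and 13.6 CPM in control. These groups overlapped too, with a log2 fold change of -0.27 ± 0.16 (edgeR adjusted p = 0.146). Both results depended on the scaling. With library totals only, Slc14a2 was called higher in CKD at 0.74 ± 0.27 (edgeR adjusted p = 0.0219) and Slc14a1 at 0.75 ± 0.17 (edgeR adjusted p = 0.000861). In that setting 13197 of all genes were called higher and 1850 lower. The median log2 fold change of all genes was 1.05, above both of these genes. With totals that leave out mitochondrial transcripts, neither passed, at 0.19 for Slc14a2 and 0.20 for Slc14a1. Under both of those scalings the other 8 genes still fell. The vasa recta and the erythrocytes that carry Slc14a1 were followed by 2 marker lists. The 8 erythrocyte genes tested summed to 36.5 to 101 CPM in CKD, against 213 to 582 CPM in control, and 2 were higher and 6 lower in CKD; the anion exchanger gene Slc4a1 is on this list and on that of intercalated cells. The 14 endothelial genes summed to 652 to 719 CPM in CKD, against 922 to 1030 CPM in control, and 11 were lower, although library totals only turned this to 12 higher and 1 lower. The part of these cells in the Slc14a1 values was not tested.

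Aqp6, of intercalated cells, had 14.1, 20.7, 17.1 and 15.5 CPM in CKD, against 76.1, 41.5, 59.9 and 53.7 CPM in control. Its log2 fold change was -1.78 ± 0.18 (edgeR adjusted p = 6.99e-07). Of 14 intercalated cell genes, 12 fell and 1 rose in CKD, with a median log2 fold change of -1.80. They included the anion exchanger gene Slc4a1 at -4.46 ± 0.20 and the receptor gene Insrr at -3.53 ± 0.20, and the list summed to 260 to 310 CPM in CKD, against 569 to 635 CPM in control. With library totals only, 8 of the 14 were lower and 2 higher. The part of these cells in the Aqp6 values was not tested.

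The proximal genes also fell. Aqp1 had 155, 158, 168 and 168 CPM in CKD, against 561, 541, 566 and 612 CPM in control, a log2 fold change of -1.81 ± 0.11 (edgeR adjusted p = 6.79e-10). Aqp7 had 4.96, 5.09, 6.61 and 5.78 CPM in CKD, against 22.4, 24.7, 21.4 and 19.2 CPM in control, a log2 fold change of -1.96 ± 0.14 (edgeR adjusted p = 5.27e-09). Aqp11 had 3.31, 2.39, 3.24 and 3.36 CPM in CKD, against 29.5, 26.9, 28.4 and 30.7 CPM in control. It had the lowest log2 fold change of the 10 genes, -3.23 ± 0.14 (edgeR adjusted p = 4e-11). Of the 20 proximal tubule genes, 19 fell and none rose, with a median of -3.23. Their sum was 2110 to 2720 CPM in CKD, against 40300 to 42800 CPM in control. Kap, the kidney androgen-regulated protein gene, alone had 115 to 163 CPM in CKD, against 23500 to 26300 CPM in control, and the other 19 genes summed to 1990 to 2560 CPM in CKD, against 15700 to 16900 CPM in control. The part of this list in the values of Aqp1, Aqp7 and Aqp11 was not tested.

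**Figure D2:**
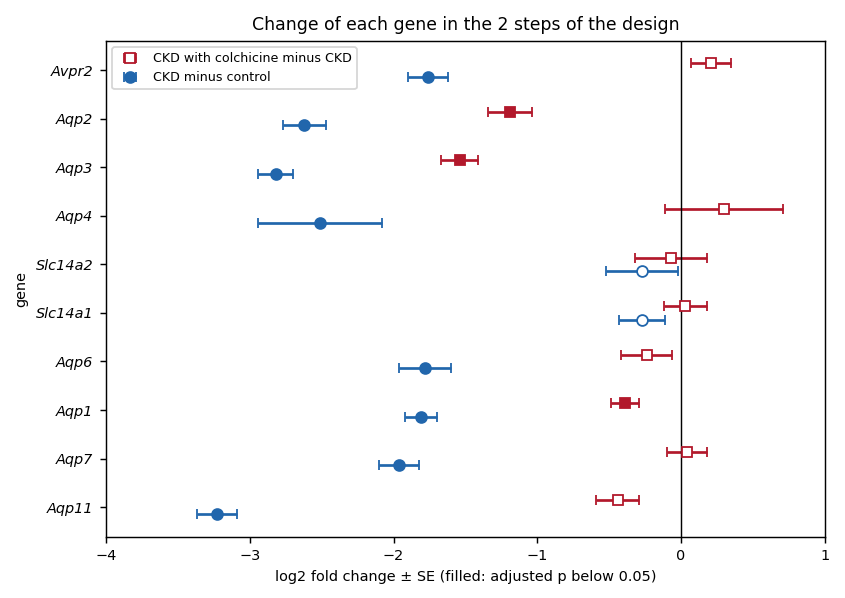
Log2 fold change of each gene, with SE bars, for CKD with colchicine minus CKD (squares) and CKD minus control (circles); filled symbols have an edgeR adjusted p below 0.05. The circles of 8 genes lie between -3.23 and -1.76, and the filled squares are Aqp2, Aqp3 and Aqp1.

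The 5 other aquaporin genes had few counts. Aqp9, a glycerol and urea channel known from liver and leukocytes, rose to 1.21 ± 0.249 CPM in CKD, against 0.457 ± 0.216 CPM in control (SD, n = 4; log2 fold change 1.38 ± 0.41, edgeR adjusted p = 0.00738). All 11 macrophage and neutrophil genes tested rose as well, to a sum of 1690 to 1740 CPM in CKD, against 94.6 to 111 CPM in control, and their part in the Aqp9 values was not tested. Aqp5 had a log2 fold change of 0.76 ± 0.41 and Aqp8 of -0.15 ± 0.57, and neither passed. Mip had 1 count over the 12 libraries together and so did Aqp12, and neither was tested.

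Principal cells were also followed by 12 markers outside the 10 genes, of which 7 fell and none rose in CKD against control, with a median log2 fold change of -0.35. The lowest were Elf5, a transcription factor, at -2.32 ± 0.33, and Fxyd4, a regulator of the sodium pump, at -2.19 ± 0.19. The sodium channel subunit genes had -0.40 ± 0.08 for Scnn1a and -0.48 ± 0.10 for Scnn1g, both called, and -0.07 ± 0.11 for Scnn1b, not called. The direction of the list depended on the scaling: library totals only gave 8 higher and 2 lower, and totals without mitochondrial transcripts gave 4 higher and 4 lower. The 12 markers summed to 572 to 598 CPM in CKD, against 698 to 802 CPM in control.

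Ratios between genes within a library do not depend on its scaling. The log2 ratio of Aqp2 to Scnn1g counts was 1.06, 1.17, 0.84 and 1.45 in CKD, against 3.63, 3.00, 3.39 and 3.06 in control. The groups were apart by -2.14 on the log2 scale (two-sided exact permutation p = 0.0286, adjusted p = 0.0594). The log2 ratio of Aqp2 to Hsd11b2, the enzyme that shields the mineralocorticoid receptor from glucocorticoids, averaged -1.06 ± 0.27 in CKD and 0.67 ± 0.19 in control (SD, n = 4), and the groups did not overlap (exact p = 0.0286). The log2 ratio of Aqp2 to Avpr2 averaged 2.80 ± 0.05 in CKD and 3.65 ± 0.17 in control (exact p = 0.0286). The ratio of Aqp2 to Aqp3 averaged 1.53 ± 0.24 in CKD and 1.34 ± 0.13 in control, a difference of 0.19 with overlapping groups (exact p = 0.229). That of Aqp2 to Aqp4 averaged 1.56 ± 0.74 in CKD and 1.46 ± 0.37 in control, and the groups overlapped. Aqp3 to Aqp4 differed by -0.09, also with overlap. Elf5 and Fxyd4, the lowest of the outside markers, were not used as denominators. They averaged 3.22 and 8 CPM in CKD, against 16.2 and 36.5 CPM in control. Aqp2 averaged 35.9 CPM in CKD and 221 CPM in control. How far Aqp2 fell beyond principal cell genes as a whole was not tested. The ratio of Slc14a2 to Slc14a1 averaged 3.41 ± 0.56 in CKD and 3.41 ± 0.20 in control (exact p = 1). That of Aqp1 to Aqp11 averaged 5.73 ± 0.22 in CKD and 4.30 ± 0.04 in control, with no overlap (exact p = 0.0286). In all, 9 ratios in 3 comparisons gave 27 tests, of which 13 reached 0.0286, the smallest p that 4 libraries against 4 allow. After Benjamini-Hochberg adjustment over the 27 none was below 0.05, and the smallest adjusted value was 0.0594.

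**Figure D3:**
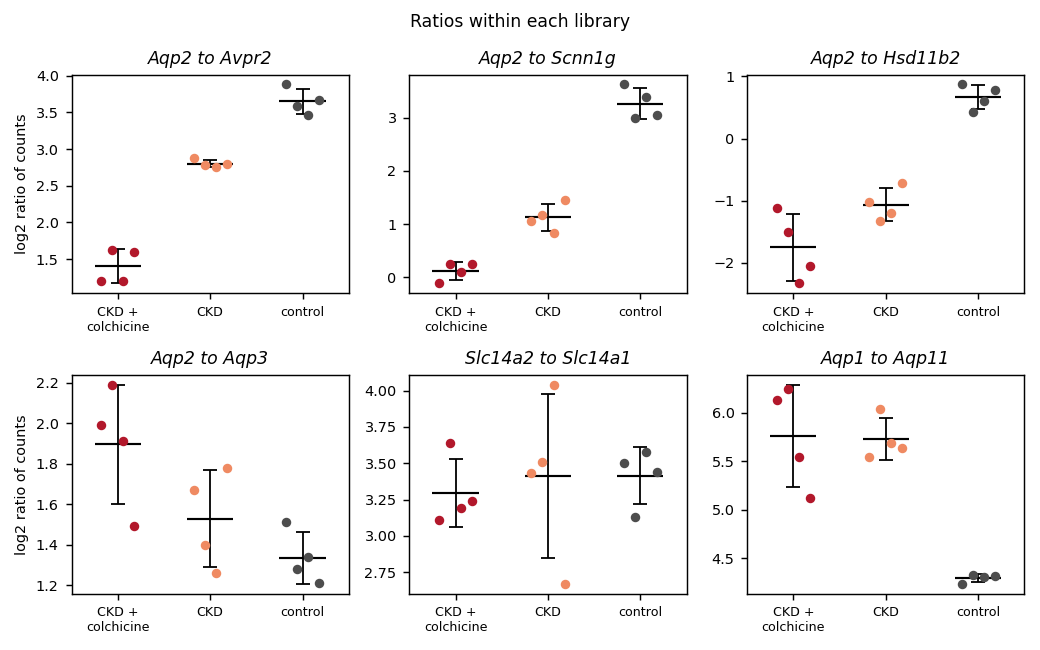
Log2 ratio of the counts of 2 genes within each library for 6 of the 9 ratios tested; points are libraries in the order of their replicate numbers, lines are means and bars are SD (n = 4). Aqp2 relative to Avpr2 averages 1.40 in CKD with colchicine, 2.80 in CKD and 3.65 in control, without overlap, while Slc14a2 relative to Slc14a1 overlaps in all 3 groups.

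Genes of the pathway from the V2 receptor to Aqp2 were called in both directions in CKD against control. So were genes at large, with 34.1% of all genes tested higher and 33.4% lower. Of 30 genes tested from the receptor to cyclic AMP signalling, 16 rose and 8 fell, with a median log2 fold change of 0.24. Arrb2, an arrestin that takes up activated receptors, was at 2.15 ± 0.09, and Pde4c, a cyclic AMP phosphodiesterase, at -2.22 ± 0.11. These are levels of the whole kidney, and which cells the transcripts came from was not tested. Gnas, the stimulatory G protein subunit, was at -0.44 ± 0.06, Prkaca, a catalytic subunit of protein kinase A, at -0.43 ± 0.06, and both were called. Adcy6, the adenylyl cyclase isoform known to serve the V2 receptor in principal cells, was at 0.03 ± 0.08 and was not called. Library totals only gave 27 higher and 1 lower for this list, so its split depended on the scaling. Avp itself, the vasopressin gene, had 4 counts in CKD with colchicine and none in CKD or control, and was not tested; the hormone is made in the brain.

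Of 23 genes for the traffic of Aqp2 vesicles, 12 fell and 6 rose in CKD, with a median log2 fold change of -0.25. This list and those that follow stand beside the same 33.4% lower and 34.1% higher over all genes tested. Vamp8, a vesicle fusion protein, was at -1.12 ± 0.10 and Sipa1l1, which binds Aqp2, at -0.80 ± 0.06, whereas Anxa2, an annexin of membrane fusion, was at 1.72 ± 0.07. Of 17 transcription factor genes of Aqp2 and the collecting duct, 7 fell and 4 rose, with a median of -0.09. Nr1h4, the bile acid receptor FXR, was at -1.84 ± 0.12 and Elf3 at 1.56 ± 0.08. Of 12 genes of the osmolyte response, 5 fell and 3 rose, with a median of -0.55. Nfat5, the regulator that switches on osmolyte genes, rose by 0.59 ± 0.09, while its targets Akr1b3, the sorbitol-making aldose reductase, and Slc6a12, the betaine transporter, fell by 2.57 ± 0.17 and 1.79 ± 0.33 on the log2 scale. Library totals only gave 20 higher and none lower for vesicle traffic, 11 higher and 3 lower for the transcription factors, and 5 higher and 2 lower for the osmolyte genes.

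The salt transport that builds the medullary gradient was followed by 14 genes of the thick ascending limb, of which 11 fell and 2 rose in CKD (median -0.97). They included the sodium-potassium-chloride cotransporter gene Slc12a1 at -1.42 ± 0.15, Cldn10 at -1.94 ± 0.09 and Ppp1r1a at -2.67 ± 0.12. With library totals only the list had 5 higher and 6 lower. Of 10 thin limb genes, 5 rose and 5 fell, with the tight junction gene Cldn4 at 1.77 ± 0.12. Genes of other tissues were tested as a check on what the samples contained. Of 8 urothelial genes 2 rose and 3 fell, and of 7 adipocyte genes 1 fell. The urothelial list summed to 102 to 141 CPM in CKD, against 73.4 to 97.3 CPM in control. Krt20, a keratin gene, alone had 62.2 to 77.4 CPM in CKD, against 0.29 to 1.43 CPM in control, and the other 7 genes summed to 24.5 to 63.6 CPM in CKD, against 73.2 to 96.3 CPM in control. The adipocyte list overlapped, with sums of 65.7 to 280 CPM in CKD, against 218 to 425 CPM in control.

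**Figure D4:**
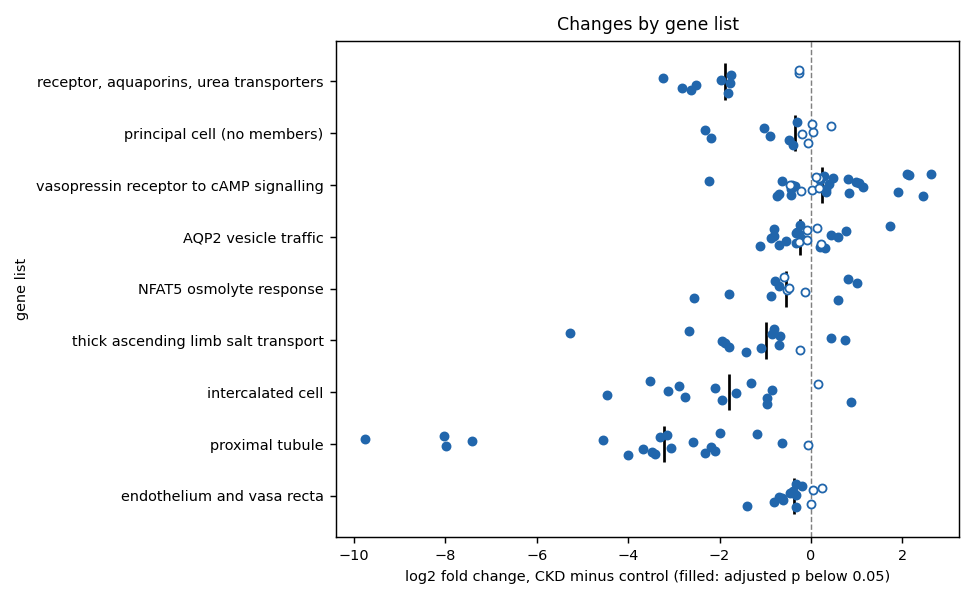
Log2 fold changes of CKD minus control for the genes of 9 lists; each point is a gene, filled where the edgeR adjusted p was below 0.05, and the black line is the list's median. The 10 genes have a median of -1.89 and the other principal cell markers a median of -0.35; with library totals only, most points move to the right, as the counts in the text give.

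The comparison of CKD with colchicine against CKD asks what colchicine changed in the adenine model. Of the 10 genes, 3 fell and none rose: the apical channel gene Aqp2, the basolateral channel gene Aqp3 and the proximal channel gene Aqp1. Over all genes tested, 15% were called in either direction, 6.79% higher and 8.24% lower, by the same edgeR test. At an unadjusted p below 0.05, 4 of the 10 were lower and 0 higher, and DESeq2 and limma-voom called 4 and 3 of them lower and 0 higher. Over all genes, DESeq2 called 1487 higher and 2266 lower, and limma-voom 1426 higher and 1933 lower. The share of all genes at an unadjusted p below 0.05 was not counted. The median log2 fold change of the 10 genes was -0.15, beside 0.03 over all genes tested. Of all genes tested, 0.297% had a lower log2 fold change than Aqp3 and 0.807% a lower one than Aqp2. Because the labelled adenine rises from 2 to 5% within CKD with colchicine, the drug and the labelled diet cannot be told apart in replicates 2, 3 and 4.

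Aqp2 had 15.6, 17.8, 13.8 and 15.8 CPM in replicates 1 to 4 of CKD with colchicine, against 36.1, 31.5, 30.7 and 45.5 CPM in CKD. The 4 treated libraries lay close together below every CKD library, replicate 1 among them. The log2 fold change was -1.19 ± 0.15 (edgeR adjusted p = 0.000437), which is 2.28 times lower. Aqp3 had 3.91, 3.88, 3.67 and 5.64 CPM in CKD with colchicine, against 11.4, 11.9, 12.8 and 13.2 CPM in CKD. Replicate 4 stood above the other treated libraries but well below CKD, and the log2 fold change of -1.54 ± 0.13 (edgeR adjusted p = 2.65e-05) made the gene 2.91 times lower. With a slope on the labelled adenine percentage, read at 2%, Aqp2 had -1.15 ± 0.22 (edgeR adjusted p = 0.00846) and Aqp3 -1.78 ± 0.17 (edgeR adjusted p = 3.9e-05). Without replicate 1 of CKD with colchicine the values were -1.19 ± 0.18 for Aqp2 and -1.52 ± 0.14 for Aqp3, both called.

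Aqp1 had 146, 132, 122 and 96.2 CPM in replicates 1, 2, 3 and 4 of CKD with colchicine, against 155, 158, 168 and 168 CPM in CKD. The groups did not overlap, and replicate 1, on 2% adenine as labelled, was nearest to CKD. The log2 fold change was -0.39 ± 0.10 (edgeR adjusted p = 0.0224). This call was lost when read at 2% adenine (-0.12 ± 0.09, edgeR adjusted p = 0.56). It was also lost with library totals only (-0.36, edgeR adjusted p = 0.053), against a 1.5-fold threshold, and without CKD replicate 3 (-0.37, edgeR adjusted p = 0.0718), CKD replicate 4 (-0.38, edgeR adjusted p = 0.0578) or replicate 3 of CKD with colchicine (-0.38, edgeR adjusted p = 0.0546). Without replicate 1 of CKD with colchicine it was -0.48 ± 0.09 (edgeR adjusted p = 0.00115).

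The other 7 genes did not pass. Aqp11 had 2.07, 1.72, 2.60 and 2.75 CPM in CKD with colchicine, against 3.31, 2.39, 3.24 and 3.36 CPM in CKD, with a log2 fold change of -0.44 ± 0.15 (edgeR adjusted p = 0.0614). It lay near the threshold and was called lower without CKD replicate 2 (edgeR adjusted p = 0.0387), without replicate 4 of CKD with colchicine (edgeR adjusted p = 0.0419), when read at 2% adenine (-0.73 ± 0.19, edgeR adjusted p = 0.0365), and by DESeq2 (adjusted p = 0.0231). Aqp4 had 23.3, 16.2, 20.4 and 8.66 CPM in CKD with colchicine, against 19.5, 5.63, 8.57 and 22.1 CPM in CKD. Both groups were spread widely, and the log2 fold change of 0.30 ± 0.41 did not pass (edgeR adjusted p = 0.634). Avpr2, the receptor, had 6.76, 5.79, 6.00 and 5.22 CPM in CKD with colchicine, against 4.89, 4.56, 4.53 and 6.57 CPM in CKD (0.21 ± 0.14, edgeR adjusted p = 0.307). Aqp6 had 10.97, 13.6, 17.0 and 15.6 CPM in CKD with colchicine, against 14.1, 20.7, 17.1 and 15.5 CPM in CKD (-0.24 ± 0.18). Aqp7 averaged 5.76 ± 1.03 CPM in CKD with colchicine and 5.61 ± 0.757 CPM in CKD (SD, n = 4; 0.04 ± 0.14).

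The urea transporter genes again overlapped between groups. Slc14a2 had 109, 173, 91.4 and 77.7 CPM in CKD with colchicine, against 127, 118, 146 and 82.4 CPM in CKD, with a log2 fold change of -0.07 ± 0.25. Slc14a1 had 12.7, 13.8, 10.03 and 8.21 CPM in CKD with colchicine, against 11.8, 10.3, 8.84 and 12.9 CPM in CKD, with 0.03 ± 0.15. The ratio of Slc14a2 to Slc14a1 averaged 3.29 ± 0.24 in CKD with colchicine and 3.41 ± 0.56 in CKD on the log2 scale (exact permutation p = 0.714). Among the other aquaporins, Aqp9 had 0.33 ± 0.34, Aqp5 -0.62 ± 0.38 and Aqp8 -1.02 ± 0.56, and none passed.

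The share of Aqp2 relative to other collecting duct genes was compared within libraries as before. The log2 ratio of Aqp2 to Avpr2 was 1.2, 1.62, 1.2 and 1.6 in CKD with colchicine, against 2.88, 2.78, 2.76 and 2.79 in CKD, a difference of -1.40 with no overlap (exact permutation p = 0.0286, adjusted p = 0.0594). The ratio of Aqp2 to Scnn1g averaged 0.12 ± 0.17 in CKD with colchicine and 1.13 ± 0.25 in CKD, also without overlap (SD, n = 4; exact p = 0.0286). That of Aqp2 to Aqp4 averaged -0.04 ± 0.69 in CKD with colchicine and 1.56 ± 0.74 in CKD (exact p = 0.0286). For Aqp2 to Aqp3 the difference was 0.37 (exact p = 0.114), for Aqp2 to Hsd11b2 -0.69 (exact p = 0.0857) and for Aqp3 to Aqp4 -1.96 (exact p = 0.0857).

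Among the 12 other principal cell markers, 2 rose and 1 fell with colchicine, with a median log2 fold change of 0.24. Stc1, a secreted stanniocalcin, was at 0.76 ± 0.18 and Gata3, a transcription factor, at 0.44 ± 0.11, whereas Kcnj10, a basolateral potassium channel, was at -0.59 ± 0.18. The list summed to 564 to 664 CPM in CKD with colchicine, against 572 to 598 CPM in CKD. Leaving out replicate 1 of CKD with colchicine gave a share of 35.3% of all genes called (2882 higher and 3519 lower), against 15% with it. The principal cell list then had 6 of 12 genes higher and 1 lower. Of the 30 signalling genes, 1 rose and 2 fell (median -0.01): the adenylyl cyclase gene Adcy5 was at 0.61 ± 0.11, the inhibitory G protein gene Gnai3 at -0.48 ± 0.13 and Rapgef3, a cyclic AMP-activated exchange factor, at -0.26 ± 0.08. Without that replicate 3 were higher and 10 lower, against the same 35.3% of all genes. Of the 23 vesicle traffic genes, 1 rose and 4 fell (median -0.10), with Anxa2 at 0.47 ± 0.07 and the fusion protein gene Snap23 at -0.50 ± 0.12. Without replicate 1 of CKD with colchicine 2 were higher and 9 lower, again beside 35.3% of all genes. With any other of the 8 libraries left out, 5.47 to 10.9% of all genes were called. Over all 8 libraries left out in turn, the principal cell list had 0 to 6 higher and 0 to 2 lower, the signalling list 1 to 3 higher and 0 to 10 lower, and the traffic list 1 to 2 higher and 0 to 9 lower.

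Of the 17 transcription factor genes, 1 rose and 2 fell with colchicine, with Nr1h4 at -0.75 ± 0.12. Of the 12 osmolyte response genes, 2 rose and 1 fell: Uchl1 was at 0.59 ± 0.13, Gdpd5 at 0.43 ± 0.13 and the taurine transporter gene Slc6a6 at -0.46 ± 0.12. The thick ascending limb list had 9 of 14 genes lower and none higher, with Slc12a1 at -1.02 ± 0.15 and the potassium channel gene Kcnj1 at -0.73 ± 0.09. Of the 20 proximal tubule genes 11 fell and none rose, including the sugar transporter genes Slc5a10 at -0.95 ± 0.11 and Slc5a1 at -0.83 ± 0.09. The proximal list summed to 1020 to 1970 CPM in CKD with colchicine, against 2110 to 2720 CPM in CKD; its part in the Aqp1 values was not tested. Leaving out each of the 8 libraries in turn gave 5 to 15 lower proximal genes and 5 to 10 lower thick ascending limb genes.

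Of 14 intercalated cell genes 4 fell and none rose with colchicine, or 1 to 4 with each library left out, with the proton pump gene Atp6v0a4 at -0.88 ± 0.16 and Foxi1, the factor that specifies these cells, at -0.39 ± 0.10. Of 10 thin limb genes 2 rose, with Cldn4 at 0.58 ± 0.11 and Cdh13 at 0.71 ± 0.14. Of 14 endothelial genes 5 rose and none fell, with Egfl7 at 0.75 ± 0.08 and Tie1 at 0.41 ± 0.07. Of 11 macrophage and neutrophil genes 5 fell, and of 12 injured tubule genes 4 rose and 2 fell. No gene of the erythrocyte, urothelium or adipocyte lists was called by edgeR. At an unadjusted p below 0.05 there were 5 lower erythrocyte genes, 1 higher and 1 lower urothelial gene and 0 adipocyte genes, and DESeq2 called 3, 1 and 0 genes of these lists. The share of all genes at that unadjusted p was not counted. The erythrocyte genes summed to 17.9 to 43.2 CPM in CKD with colchicine, against 36.5 to 101 CPM in CKD.

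CKD with colchicine against control shares its control libraries with the first comparison, so its values are given beside those and not as a separate support. Over all genes tested, 70.5% were called in either direction, 37.1% higher and 33.4% lower. Again 8 of the 10 genes were lower and none higher, with a median log2 fold change of -2.11, beside 0.10 over all genes tested. Aqp3 was 20.5 times lower (-4.36 ± 0.13, edgeR adjusted p = 9.82e-13), at 4.27 ± 0.914 CPM in CKD with colchicine and 87.0 ± 10.1 CPM in control (SD, n = 4). Aqp2 was 14 times lower (-3.81 ± 0.16, edgeR adjusted p = 2.59e-11), at 15.7 ± 1.64 CPM in CKD with colchicine and 221 ± 41.3 CPM in control. Aqp11 was 12.7 times lower (-3.67 ± 0.15, edgeR adjusted p = 1.04e-11). The remaining called genes lay closer to their CKD values, with Aqp1 at -2.20 ± 0.11, Aqp4 at -2.21 ± 0.42, Aqp6 at -2.01 ± 0.18, Aqp7 at -1.92 ± 0.14 and Avpr2 at -1.55 ± 0.14. Slc14a1 had -0.23 ± 0.16 and Slc14a2 -0.34 ± 0.25, neither called. With library totals only, both were called higher, at 0.81 ± 0.17 (edgeR adjusted p = 0.000388) and 0.71 ± 0.27 (edgeR adjusted p = 0.0251). The median of all genes tested was then 1.14. Slc14a2 was called lower without replicate 2 of CKD with colchicine, its highest library (-0.62, edgeR adjusted p = 0.0146). Aqp9 was higher, at 1.71 ± 0.40 (edgeR adjusted p = 0.00138).

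The order of levels between the genes was compared per kilobase of exon. In CKD with colchicine Aqp1 was highest at 47.2 ± 7.94 CPM per kilobase (SD, n = 4), followed by Slc14a2 at 22.1 ± 8.27, Aqp2 at 11.1 ± 1.15 and Aqp6 at 5.90 ± 1.08. Aqp4, Slc14a1, Aqp3, Aqp7 and Avpr2 followed between 2.90 and 2.06 CPM per kilobase, each overlapping its neighbour in that order, and Aqp11 was lowest at 0.611 ± 0.128. In CKD the order began with Aqp1 at 61.9 ± 2.57, then Aqp2 at 25.3 ± 4.80 and Slc14a2 at 23.2 ± 5.23, which overlapped each other. Aqp3 at 6.98 ± 0.478 overlapped Aqp6 at 6.95 ± 1.16, and Aqp11 was lowest at 0.823 ± 0.123. In control Aqp1 at 217 ± 11.5 led Aqp2 at 156 ± 29.1 and Aqp3 at 49.3 ± 5.74, with no overlap between these 3 genes. Slc14a2 at 28.0 ± 5.54 and Aqp6 at 23.8 ± 5.94 overlapped, as did Aqp7 at 8.57 ± 0.875 and Aqp11 at 7.73 ± 0.438, and Slc14a1 was lowest at 3.30 ± 0.268. Aqp3 thus held rank 7 of the 10 in CKD with colchicine, rank 4 in CKD and rank 3 in control.

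Likeness of pattern was measured as the root mean square difference of log2 CPM, centred on each gene's mean, over the 12 libraries, among 14018 other genes. Between the 10 genes, Aqp2 lay 0.30 from Aqp3, Aqp1 lay 0.29 from Aqp7, Aqp7 lay 0.29 from Avpr2, and Slc14a1 lay 0.33 from Slc14a2. Aqp2, Aqp5 and Aqp6 are neighbours in the RefSeq gene order, as are Aqp7 and Aqp3, and Slc14a1 and Slc14a2, with no other protein-coding gene in between; Aqp2 lay 0.79 from Aqp6, and Aqp3 lay 1.03 from Aqp7. The genes nearest to Aqp2 were Slc6a13 at 0.23, Gpm6a at 0.32 and Tmem207 at 0.34, and those nearest to Aqp3 were Slc17a1 and Acot12 at 0.27 and Aass at 0.29. Nearest to Aqp4 were Elf5 at 0.29, Akr1b3 at 0.38 and Tldc2 at 0.39. Avpr2 lay nearest to Cryab at 0.16, Ndrg2 at 0.18 and Cpt1b at 0.19, Aqp6 to Rilp and Pde9a at 0.20 and Rtn4ip1 at 0.22. Aqp1 lay nearest to Mfap3l at 0.12, Gpr155 at 0.13 and Nxpe3 at 0.14. Glis1, Gstk1 and Tprkb lay 0.15 from Aqp7, and Me1, 4931406C07Rik and Gm10804 lay 0.15 from Aqp11. Slc14a1 lay nearest to AA986860 at 0.13 and to Rab11fip1 and Prkd1 at 0.14, and Slc14a2 to Rgs6 at 0.22, Scel at 0.25 and Tmed10-ps at 0.26. The 12 libraries share the large difference between the adenine groups and control, so these distances describe the samples only.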

How the data were processed

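Gene-level counts for 12 kidney libraries were used. The labels' protocols name RNAiso Plus for extraction and a CORALL RNA-seq V2 kit for the libraries. The submitters' processing notes name fastp, STAR, Salmon and the GRCm39 build; the sources used here give no versions, annotation or settings. The deposited values are taken as the authors' estimated counts (expected counts), already rounded to whole numbers. Genes were kept by filterByExpr (minimum count 10), scaled by TMM and fitted with 3 group means over all 12 libraries by edgeR 4.0.16 in R 4.3.3 (robust quasi-likelihood F test, two-sided, Benjamini-Hochberg adjustment over 17841 genes, called below 0.05). Ratios added 0.5 to each count and used two-sided exact permutation tests over 70 arrangements. Levels per kilobase used merged exon lengths of GENCODE M21 on GRCm38, and promoters were RefSeq windows on GRCm38.p6, so both come from another build than the counts. The genes and lists were chosen with earlier results of these data known. The text names all 10 genes, the other aquaporins and the 3 nearest genes by pattern (mean count of 50 or more). List members are named as examples, and some are among the 2 genes of smallest p of their list and comparison. Not every gene of smallest p is named, and other examples were chosen after their values were seen. Alternatives were DESeq2 1.42.0, limma-voom (limma 3.58.1), other scalings and filters, a 1.5-fold threshold, fits of the 8 libraries compared alone, a replicate block, the adenine percentage as labelled, and leaving out each library; library totals without mitochondrial transcripts were added after seeing the data. The models were also run on simulated counts with far fewer changed genes than these data and a shared composition in all libraries. That run could not test the choice of scaling.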

Additional observations from a re-analysis of the deposited data

Results flagged for a closer look

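Of 66 groups of 4 libraries examined (3 groups for each gene or ratio), 3 had a library whose gap to the next, as a share of the group's range, passed Dixon's critical value, and chance gives about 1 in 20, or about 3.3. Aqp3 was at 5.64 CPM in replicate 4 of CKD with colchicine, with the other libraries of that group at 3.67 to 3.91 CPM. Aqp11 was at 2.39 CPM in CKD replicate 2, with the others at 3.24 to 3.36 CPM. Aqp9, an aquaporin outside the 10 genes, was at 2.58 CPM in replicate 3 of CKD with colchicine, with the others at 1.08 to 1.25 CPM.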

How the results depend on the processing

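Under 20 other settings for CKD against control, 21 for CKD with colchicine against CKD and 21 for CKD with colchicine against control, 160 of 160, 57 of 63 and 168 of 168 combinations kept the calls of the genes called; the 6 lost were all Aqp1. The urea transporter genes reversed with library totals only. Slc14a1 went to 0.75 and Slc14a2 to 0.74 in CKD against control, and to 0.81 and 0.71 in CKD with colchicine against control. In each comparison 2 of the 10 genes were thus called higher. The median of all genes moved too, from 0.04 to 1.05 and from 0.1 to 1.14 in these comparisons. Both urea transporter genes lay below that median under either scaling. Why the scalings differ was not tested. Counts over all genes were 6076 higher and 5952 lower in CKD against control. They became 13197 and 1850 with library totals only, 9663 and 3420 with totals without mitochondrial transcripts, and 3582 and 3320 against a 1.5-fold change. In CKD with colchicine against control they were 6612 and 5964, and became 13762 and 1953, 10451 and 3435, and 4017 and 3444 under the same settings. In CKD with colchicine against CKD they were 1212 higher and 1470 lower, and became 12 and 28 against a 1.5-fold change and 392 and 616 when read at 2% adenine; DESeq2 called 2266 lower. Leaving out each library gave 419 to 2882 higher and 573 to 3519 lower there. The largest counts came without replicate 1 of CKD with colchicine, which stood apart; without CKD replicates 1, 2, 3 and 4 there were 580, 662, 419 and 640 higher and 846, 899, 573 and 878 lower, and without replicates 2, 3 and 4 of CKD with colchicine 489, 629 and 724 higher and 707, 756 and 1252 lower. The deviations of same-numbered libraries had correlations of -0.279 to 0.189, which were not tested and cannot settle whether the numbers pair the samples. With the replicate block, 694 genes were higher and 1062 lower in CKD with colchicine against CKD, and Aqp11 was called lower at -0.43. No ratio passed in any of the 324 recomputations, but the exact tests have a floor, so this says nothing about the stability of the ratios. The sign-flip test over replicate pairs was not adjusted and could not pass, with a floor of 0.125. Counts of Aqp11 over a group's 4 libraries were 357 in CKD with colchicine, 385 in CKD and 1980 in control.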
